A study of Argopecten irradians with 2 samples.

Results

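The 30 unigenes described here are the scallop gill transcripts annotated as matrix, astacin and serine proteases. A unigene is a transcript sequence assembled from the reads without a genome. The members were found by words in their best Swiss-Prot hit (matrix metalloproteinase, meprin, blastula protease, astacin, disintegrin and metalloproteinase, chymotrypsin, trypsin-, transmembrane protease serine, plasminogen, kallikrein, neprilysin, stromelysin and interstitial collagenase) and by a minimum of 10 reads over both libraries. These words matched 53 of the 60308 listed unigenes. Of the 53, 30 reached 10 reads and 23 did not.

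Gills of the bay scallop Argopecten irradians, a filter-feeding bivalve, were sequenced after 48 h with palmitoleic acid (PA, a monounsaturated fatty acid with algicidal activity) at 80 mg/L, and after 48 h with an equal volume of its solvent, dimethyl sulphoxide (DMSO). Both groups were market-bought scallops that received DMSO and the same food. There was 1 library per condition. The labels describe each library as pooled tissue of 18 scallops, and the methods of the study describe 3 pools of 6 scallops per condition, so the spread between pools is not known for any value given here.

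Proteases of these families act outside the cell or at its surface. Matrix metalloproteinases (MMPs), ADAMs and ADAMTSs are zinc enzymes that, in vertebrates, cut collagen and proteoglycans or shed the outer parts of membrane proteins. Astacins are zinc enzymes that process matrix and growth factor precursors, and secreted serine proteases of the trypsin fold serve digestion, clotting and immune cascades. Tissue inhibitors of metalloproteinases (TIMPs) bind the active site of MMPs. The gill of a bivalve is a ciliated epithelium over a thin matrix skeleton perfused with hemocytes.

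The expected counts summed to 10305482 reads in control gills and 10414545 in PA gills. The text gives expected reads (the estimated number of reads from a unigene), FPKM (fragments per kilobase of unigene, scaled to the size of the library, a level that can be compared between unigenes) and log2 ratios of FPKM, PA over control (log2 fold changes). "Control" and "PA" stand for the 2 libraries. A unigene was called higher or lower when the Poisson test of Audic and Claverie gave a Benjamini-Hochberg false discovery rate (FDR) of at most 0.001 over all unigenes and the fold change was at least 2. "Rose" and "fell" are used for called unigenes only, and they compare the libraries, not the conditions. Intervals are 95% Clopper-Pearson intervals and cover counting error only. Of the 38391 unigenes with 10 reads or more, 13.3% were called higher and 10.7% lower. Their median log2 ratio was 0.21 with library totals as the scale and −0.03 with TMM factors. With TMM factors 10% were called higher and 14.0% lower.

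Ciliated epithelium markers, which check the labelled tissue, were read in both libraries. Of their 75 unigenes, 19 rose and none fell, and 1 was at 0 reads in control gills. With TMM factors 14 rose and none fell. The summed level of the list was 685 reads per 1000000 in control gills and 1577 in PA gills. Markers of hemocytes summed to 174 and 233 reads per 1000000, with 2 of 4 unigenes higher. Of these 2, 1 is a hemocyte transglutaminase hit, Unigene8767_All, with 36 and 475 reads (log2 ratio 3.70). Another hit to this enzyme, Unigene12946_All, had 117 and 182 reads and was not called. The second that rose is a big defensin contig, CL1325.Contig1_All, with 85 and 725 reads. The other contig of its cluster had 1558 and 1041 reads, and the summed reads of the cluster had a log2 ratio of 0.09. The adductor muscle list summed to 682 and 823, with 6 of 28 unigenes higher and 5 lower. With TMM factors 4 unigenes of this list were higher and 6 lower. Some of its troponin C hits have as best Nr hit another calcium-binding protein, CML14, and may not mark muscle. Among these, CL5076.Contig1_All (379 and 1161 reads) and Unigene6764_All (18 and 72 reads) are counted as higher. Digestive gland enzymes summed to 133 and 82.6, with 2 of 6 unigenes lower. The gonad marker list, vitellogenin, had 1 unigene with 0.291 and 1.63 reads per 1000000. Its best Nr hit is a hypothetical protein of Neospora caninum, so it may not be vitellogenin. The part of these lists in the protease values was not tested. In bulk tissue, fewer cells of a type and less RNA per cell cannot be told apart.

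Of the 30 protease unigenes, 11 fell, 4 rose and 15 were not called. The shares were 36.7% called lower and 13.3% called higher. Their median log2 ratio was −0.80, with 20 unigenes below 0 and 10 above, against the median of 0.21 over all unigenes with 10 reads or more. With TMM factors 12 were lower and 4 higher, and the median was −1.05. With unigenes of 3 reads or fewer set to 3 reads the median was −0.81. The variation between pools was not measured, and when a biological coefficient of variation of 0.2 was assumed in the exact test of edgeR 6 were lower and 2 higher, and with 0.4 none was called. Depth differed too, since the median protease unigene had 181 reads and the median of all unigenes with 10 reads or more had 56.9. Among the 9913 unigenes with 200 or more reads 19.6% were called higher and 16.8% lower, and of the 15 proteases with that many reads 3 rose and 6 fell.

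**Figure D1:**
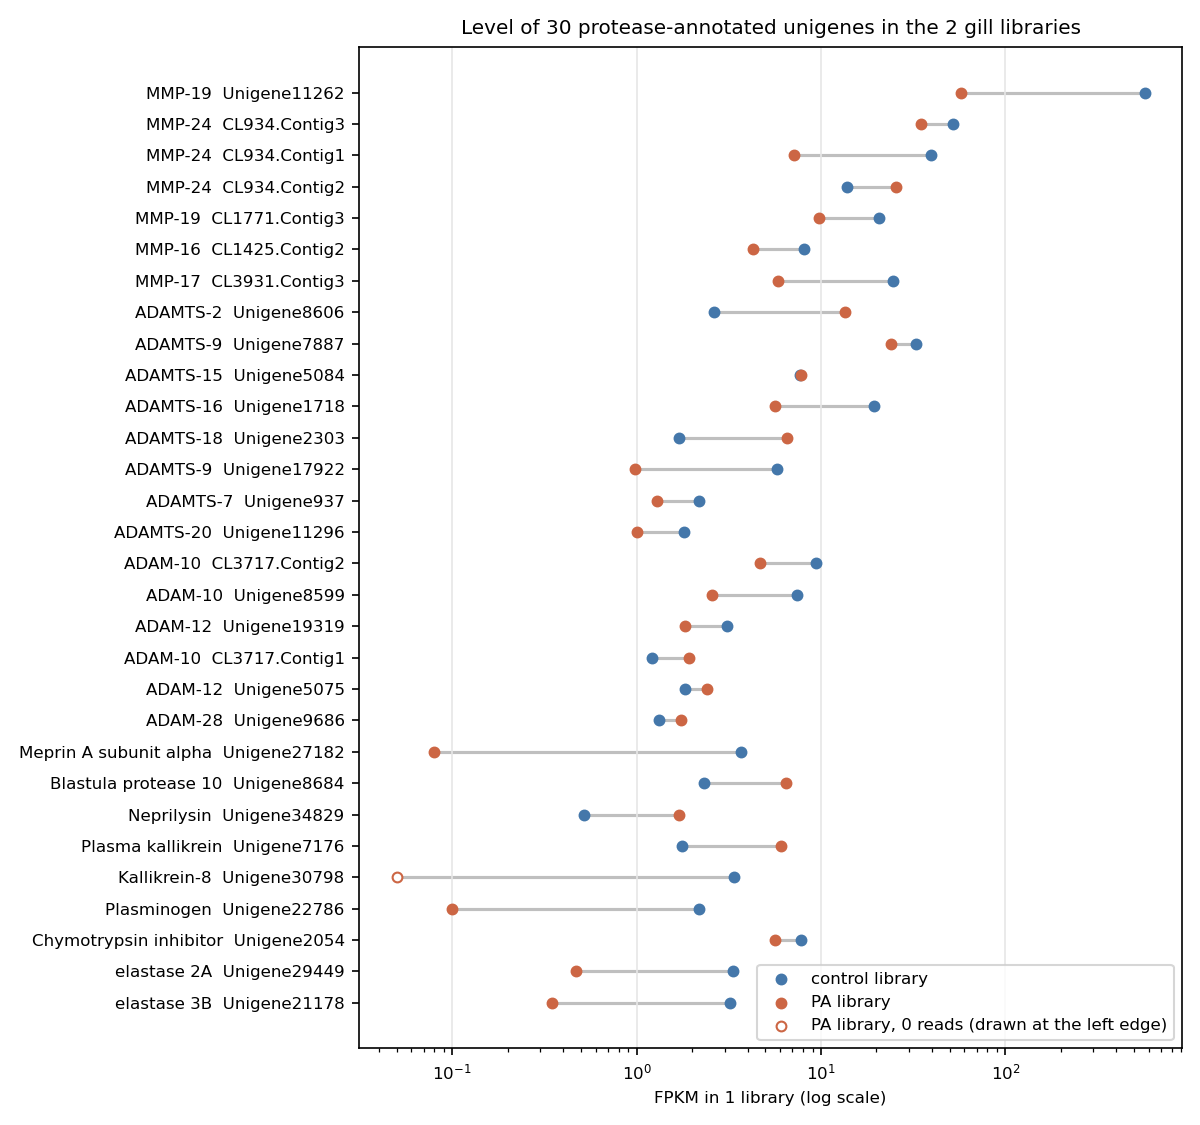
Level of each of the 30 protease-annotated unigenes in control gills (blue) and PA gills (orange), in FPKM on a log axis, 1 library per condition, ordered by family and by reads and named by the best Swiss-Prot hit. The highest levels are those of MMP hits, led by Unigene11262 at 569 FPKM in control gills and 57.1 in PA gills, and the open circle marks the unigene with 0 reads in PA gills.

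All 30 members were annotated by similarity only, and the annotation lists 1 domain entry per unigene, so a domain that is not named here may still be present. Their best protein hits in Nr came mostly from other molluscs, with 13 from the oyster Crassostrea gigas, 8 from the limpet Lottia gigantea, 2 from the sea hare Aplysia californica and 1 from the scallop Azumapecten farreri. Unigene lengths ran from 324 to 10564 bp, with a median of 2015 bp against 846 bp for all unigenes with 10 reads or more. The 30 were 22 single unigenes and 8 contigs from 5 clusters, a cluster being a group of similar contigs that may come from 1 gene and share reads. The word search also caught Unigene2054_All, whose hit is not a protease but a chymotrypsin inhibitor of the earthworm. It had 44 reads in control gills and 32 in PA gills and was not called. For some other members, such as Unigene8606_All, Unigene22786_All and Unigene5084_All, the listed domain is not a protease domain. Whether these are proteases was not tested, and their calls are counted with the rest.

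MMP hits carried most of the protease reads. They made up 90.9% of all reads on the 30 unigenes in control gills and 64.3% in PA gills. Of the 7 MMP unigenes 4 fell, none rose, and 6 had a log2 ratio below 0, with a median of −1.08. Of all unigenes with 10 reads or more, 10.7% were called lower and 13.3% higher. With TMM factors 5 fell. Several of the 7 are contigs of shared clusters. With the reads of each cluster summed they made 5 entries, of which only Unigene11262_All and the cluster CL3931 were called lower.

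The largest of them was Unigene11262_All, with a best hit to human MMP19 and a matrixin domain, the catalytic domain of MMPs. It had 20779 reads (569 FPKM) in control gills and 2107 reads (57.1 FPKM) in PA gills. The log2 ratio was −3.32 (interval −3.38 to −3.25), or 9.96-fold lower in PA gills. This unigene ranked 35 of all unigenes by reads in control gills. Of the 1195 unigenes with 1000 or more reads in control gills, 57 fell by as much or more, itself counted. It held 70.8% of the protease reads of the control library and 23.6% of those of the PA library. Summed protease reads per library total were 3.32-fold lower in PA gills with it and 1.27-fold lower without it.

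A second MMP19 hit, CL1771.Contig3_All, had 464 reads (20.6 FPKM) in control gills and 221 reads (9.73 FPKM) in PA gills. It fell by 1.08 on the log2 scale (FDR 3.1e-20). Of the 2 short contigs of the same cluster, which carry no protease annotation, contig 1 rose from 38 to 103 reads, and contig 2 had 8 and 26 reads and was not called. Summed over the cluster, the reads were 510 and 350, and the log2 ratio of these summed reads, −0.56, did not reach the fold threshold. The summed FPKM of the cluster went the other way, from 31.7 to 41.4. Log2 ratios of whole clusters are ratios of summed reads throughout.

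A set of 3 MMP24-like contigs came from the cluster CL934. MMP24 is a membrane-anchored MMP in mammals. Only contig 1 of the 3 was called. CL934.Contig1_All fell from 1830 to 336 reads (39.4 to 7.15 FPKM), a log2 ratio of −2.46 (interval −2.63 to −2.29, FDR 2.1e-249). CL934.Contig3_All had 2377 and 1595 reads and a log2 ratio of −0.59, and CL934.Contig2_All had 651 and 1206 reads and a log2 ratio of 0.88, neither called. Contig 1 took 37.7% of the reads of the cluster in control gills and 10.7% in PA gills, while contig 2 took 13.4% and 38.5%. The share of contig 3 was 48.9% and 50.8%. The cluster as a whole had 4858 and 3137 reads, a log2 ratio of −0.65 that was not called. How reads that fit several contigs were divided was not tested.

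**Figure D2:**
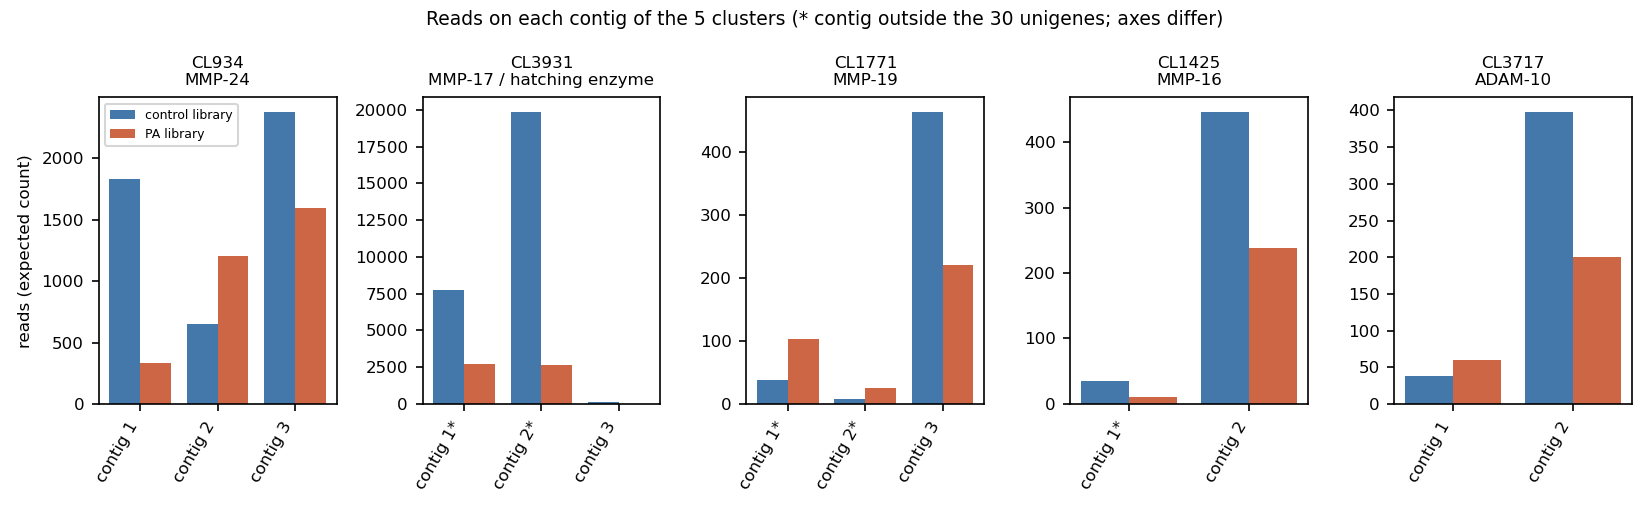
Expected reads on each contig of the 5 clusters that hold a protease unigene, in control gills (blue) and PA gills (orange), with a separate axis starting at 0 for each cluster and an asterisk for contigs outside the 30. In CL934 contig 1 went from 1830 to 336 reads while contig 2 went from 651 to 1206, and in CL3931 contig 3 (125 and 30 reads) is hardly visible beside contigs 1 and 2.

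The cluster CL3931 held more reads than any of the MMP hits above. Its contig 3, a fragment of 546 bp with a best hit to human MMP17, had 125 reads (24.5 FPKM) in control gills and 30 reads (5.82 FPKM) in PA gills, and fell by 2.07 on the log2 scale (FDR 2.6e-14). The other 2 contigs are outside the 30, because their best Swiss-Prot hit is a sea urchin hatching enzyme, which is itself a matrixin. Their best Nr hit, a matrix metalloproteinase of the scallop Azumapecten farreri, is shared with contig 3. CL3931.Contig2_All fell from 19857 to 2681 reads (1020 to 136 FPKM) and CL3931.Contig1_All from 7749 to 2686 reads (404 to 139 FPKM). Log2 ratios of these contigs were −2.90 and −1.54. Over the whole cluster the reads were 27731 and 5397, 5.19-fold lower in PA gills, and the cluster was called lower. These contigs were picked out after their values were seen.

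The MMP16-like CL1425.Contig2_All, with a hit to another membrane-anchored MMP, had 446 reads (8.14 FPKM) in control gills and 238 reads (4.30 FPKM) in PA gills. The log2 ratio of −0.92 missed the fold threshold with library totals, and passed it with TMM factors at −1.16. An unannotated contig of the same cluster had 35.2 and 11.3 reads, and the cluster sum, with a log2 ratio of −0.97, was not called.

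TIMPs, the inhibitors of this family, included 1 unigene that fell and 2 contigs that rose. The 6 TIMP2-like unigenes were 1 single unigene and 5 contigs of 1 cluster. The single one, Unigene19377_All, had 5328 reads (170 FPKM) in control gills and 300.0 reads (9.47 FPKM) in PA gills, a log2 ratio of −4.17 (interval −4.34 to −4.00), and fell. In the cluster CL1198, contig 2 rose from 80.2 to 275 reads and contig 1 from 96.1 to 201 reads, and the other 3 contigs were not called. The summed reads of this cluster had a log2 ratio of 0.83, under the fold threshold. With TMM factors 1 of the 6 rose and 1 fell.

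ADAMTS hits went both ways. Of 8 unigenes 2 rose, 2 fell and 4 were not called, and the median log2 ratio was −0.60. The ADAMTS enzymes are secreted and carry thrombospondin repeats that bind matrix.

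The largest rise among all 30 was that of Unigene8606_All, from 287 reads (2.64 FPKM) in control gills to 1492 reads (13.6 FPKM) in PA gills. The log2 ratio was 2.36 (interval 2.18 to 2.55, FDR 4.2e-191). It is also the longest member, at 10564 bp. Its hit to mouse ADAMTS2, a procollagen processing enzyme, has an E value of 2e-11, and the domain listed for it is fibronectin type III, not a protease domain. Unigene2303_All, with a hit to mouse ADAMTS18 and thrombospondin repeats, rose from 57 reads (1.70 FPKM) to 220 reads (6.51 FPKM). Its log2 ratio was 1.94 (interval 1.51 to 2.38, FDR 4.0e-22).

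Unigene1718_All, with a hit to mouse ADAMTS16 and an ADAM type metalloprotease domain, fell from 394 reads (19.3 FPKM) to 116 reads (5.62 FPKM), a log2 ratio of −1.78 (interval −2.09 to −1.48, FDR 8.4e-36). Unigene17922_All, with a hit to human ADAMTS9, fell from 117 reads (5.79 FPKM) to 20 reads (0.98 FPKM), a log2 ratio of −2.56 (interval −3.33 to −1.87, FDR 3.7e-17). ADAMTS9 cuts proteoglycans in mammals, but the best Nr hit of this unigene is ADAMTS3-like. For Unigene1718_All and Unigene2303_All the best Nr hits are ADAMTS1 and ADAMTS2, so the numbers in these names are uncertain. A second ADAMTS9 hit, Unigene7887_All, is the ADAMTS hit with the highest control level at 32.9 FPKM, and its listed domain is the GON domain. It had 433 and 318 reads and was not called (log2 ratio −0.46, interval −0.67 to −0.25). Unigene5084_All, with a hit to human ADAMTS15 and a ring finger domain, had 282 and 285 reads (7.74 and 7.75 FPKM). Its log2 ratio was 0.00 (interval −0.24 to 0.24) with library totals and −0.24 with TMM factors. The last 2 ADAMTS hits had 10 and 9 reads in control gills and 6 and 5 in PA gills. They were not called, with folds of 1.68 and 1.81 and FDRs of 0.50 and 0.46.

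**Figure D3:**
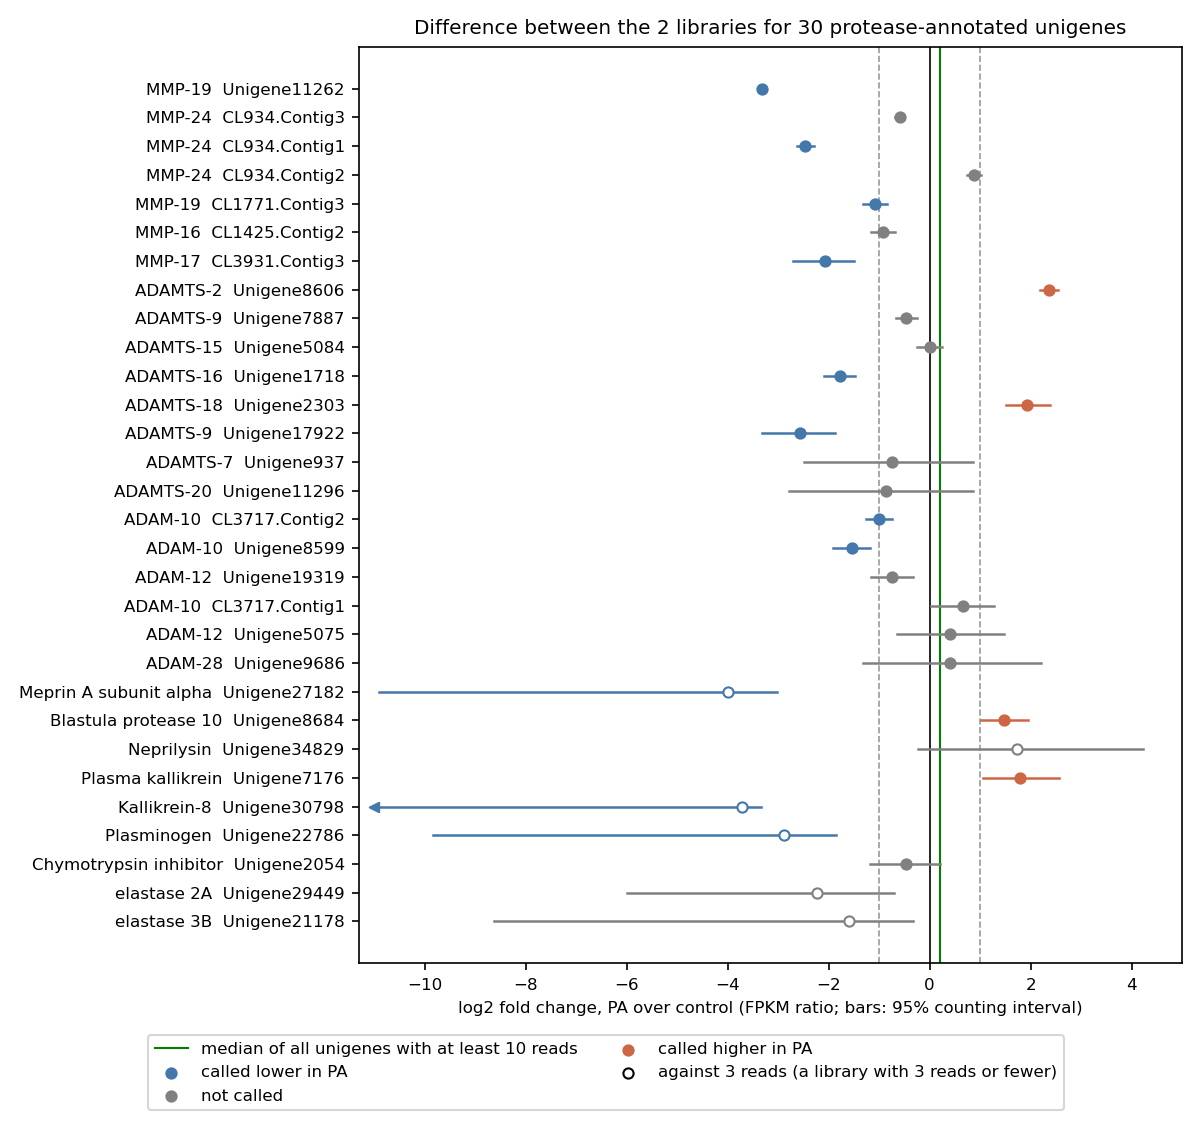
Log2 ratio (PA over control) of the 30 protease-annotated unigenes with 95% counting intervals, blue for called lower, orange for called higher and grey for not called. Dashed lines mark a fold of 2 in either direction and the green line the median of all unigenes with 10 reads or more (0.21), open circles are computed against 3 reads where a library had 3 or fewer, the arrow marks an interval with no lower end, and the MMP hits lie below 0 except CL934.Contig2.

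ADAM hits had no common direction. ADAMs are membrane-anchored enzymes, and ADAM10 sheds Notch and other surface proteins in animals. Among all unigenes with 10 reads or more, 10.7% were called lower and 13.3% higher. Of 6 ADAM unigenes 2 fell and none rose, with a median log2 ratio of −0.17, 3 below 0 and 3 above. Both that fell have best hits to ADAM10. Unigene8599_All fell from 241 reads (7.41 FPKM) to 84 reads (2.56 FPKM), a log2 ratio of −1.53 (interval −1.91 to −1.17, FDR 4.6e-18). CL3717.Contig2_All fell from 398 reads (9.38 FPKM) to 201 reads (4.68 FPKM), at −1.0 on the log2 scale (interval −1.25 to −0.75, FDR 2.2e-15). This call stands at the edge of the fold threshold and was lost with 1 FPKM added to each level (−0.87). The other contig of the cluster, CL3717.Contig1_All, had 38.1 and 60.3 reads (log2 ratio 0.65), and the cluster sum of 436 and 261 reads was not called (−0.76).

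The ADAM12-like Unigene19319_All had 129 reads (3.08 FPKM) and 78 reads (1.84 FPKM), with a log2 ratio of −0.74 (interval −1.17 to −0.32). Its FDR of 0.0014 and its fold were both short of the thresholds. The remaining 2 ADAM hits had 15 and 20 reads and 6 and 8 reads in the control and PA libraries.

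The 2 astacin hits moved in opposite directions. Meprin is an astacin of the gut and kidney brush border in mammals, and blastula protease 10 is an astacin of the sea urchin embryo. Unigene27182_All, with a hit to human meprin A subunit alpha and an astacin domain, had 47 reads (3.69 FPKM) in control gills and 1 read (0.08 FPKM) in PA gills. It fell, with a log2 ratio of −5.53 and an interval of −10.90 to −3.02 (FDR 1.6e-12). Unigene8684_All, with a hit to blastula protease 10 and a MAM domain, rose from 55 reads (2.32 FPKM) to 154 reads (6.43 FPKM), a log2 ratio of 1.47 (interval 1.02 to 1.94, FDR 8.3e-11).

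Astacins outside the 30 were also mixed. Of 8 with hits to tolloid or to the nas and dpy zinc metalloproteinases of the worm Caenorhabditis elegans, 2 rose and 3 fell, with a median of −0.31. With TMM factors 1 rose and 3 fell. The most abundant, the nas-15-like Unigene18841_All, fell from 12604 to 3603 reads (log2 ratio −1.82). The dpy-31-like Unigene41830_All rose from 4 to 231 reads (5.90, interval 4.46 to 7.72). In the worm, dpy-31 processes cuticle collagen.

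Neprilysin, a membrane peptidase of another zinc family, had 1 member. Unigene34829_All had 3 reads in control gills and 10 in PA gills and was not called (log2 ratio 1.71, interval −0.24 to 4.22). Among 5 relatives of neprilysin outside the 30, 1 rose and 1 fell.

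Serine proteases were low in both libraries. The 5 members had between 9 and 39 reads in control gills and summed to 10.2 reads per 1000000 there and 7.39 in PA gills. Of these 2 fell and 1 rose. Unigene30798_All has a trypsin domain and a hit to human kallikrein-8 with an E value of 6e-08, and its best Nr hit is a mosquito trypsin. It had 39 reads (3.36 FPKM) in control gills and 0 in PA gills. It fell (FDR 1.6e-11) and was at least 13.1-fold lower when 3 reads are taken as the limit that a count of 0 allows and the 39 reads as exact. The interval of its log2 ratio, which counts the error of both, ends nearer to 0, at −3.35. Unigene22786_All, with a hit to plasminogen and a kringle domain, a binding module of clotting proteins, had 22 reads (2.19 FPKM) and 1 read (0.10 FPKM). It fell, with a log2 ratio of −4.45 and an interval of −9.84 to −1.85 (FDR 1.7e-05).

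Unigene7176_All was the serine protease that rose, from 21 reads (1.76 FPKM) to 73 reads (6.07 FPKM). Its best hit is human plasma kallikrein, an enzyme of the contact pathway of clotting in mammals. The log2 ratio was 1.79 (interval 1.07 to 2.56, FDR 6.6e-07). The 2 elastase hits were not called. Unigene29449_All had 14 and 2 reads (FDR 0.0087) and Unigene21178_All had 9 and 1 reads (FDR 0.036).

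Serine proteases outside the 30 took more reads, 692 per 1000000 in control gills and 426 in PA gills. Of 25 unigenes with hits to neurotrypsin, thymus-specific serine protease, furin and related enzymes, 3 rose and 8 fell, with a median log2 ratio of −0.19. With TMM factors 2 rose and 8 fell. Inhibitors of metalloproteinases and serine proteases, TIMPs included, had a median of 0.79, with 8 of 37 higher and 6 lower, and with TMM factors 6 higher and 6 lower. Their summed level went the other way, from 1481 reads per 1000000 in control gills to 750.2 in PA gills. Most of the control reads of this list were on a few unigenes that fell. These were the TIMP2-like Unigene19377_All (5328 and 300 reads), the papilin-like Unigene17583_All (3908 and 1177) and Unigene388_All (2514 and 607), a serine protease inhibitor hit.

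**Figure D4:**
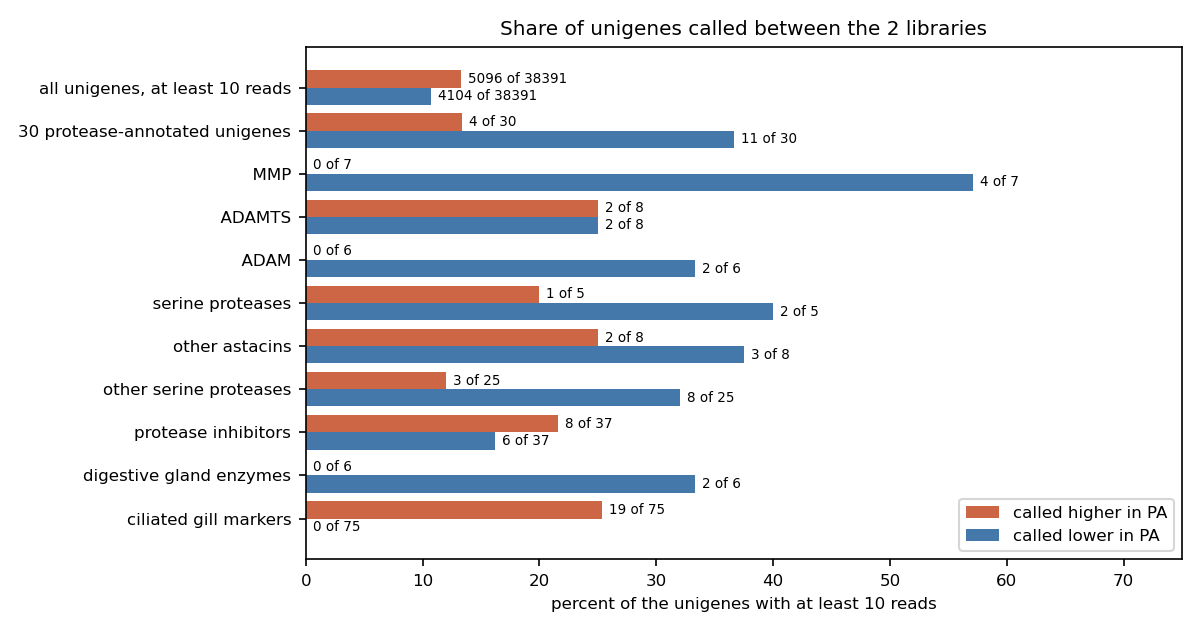
Share of unigenes called higher (orange) and lower (blue) in PA gills, in percent of the unigenes of each list with at least 10 reads, with the counts beside the bars. The 30 protease-annotated unigenes show 36.7% lower and 13.3% higher, beside 10.7% and 13.3% of all unigenes with 10 reads or more.

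The 23 unigenes under 10 reads had between 1 and 9 reads and none was called. By family they were 14 ADAMTS hits, 4 ADAM hits, 2 transmembrane serine protease hits and 1 each of MMP, neprilysin and plasminogen. Just outside the minimum lay the ADAMTS12-like Unigene13857_All with 2 and 7 reads and the transmembrane serine protease 3-like Unigene27063_All with 7 and 2 reads. Just inside lay Unigene21178_All with 9 and 1 reads. No transmembrane serine protease hit and no hit named by the word trypsin- reached the minimum.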

How the data were processed

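Per the methods of the study, the authors cleaned the reads (SOAPnuke), assembled them per library (Trinity), joined the assemblies into unigenes (TGICL), and mapped (Bowtie 2) and quantified (RSEM) the reads on these. Deposited for every unigene and library were an expected count and an FPKM value. The authors' comparison table was used for unigene length and annotation only. It also holds their fold changes, p-values and FDR, which were not used.

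Expected counts were rounded to whole numbers for a two-sided Audic-Claverie Poisson test over 60308 unigenes (Python 3.11.15, scipy 1.17.1), with an FPKM of 0 set to 0.01 in fold changes. The script was tested on simulated Poisson counts, with changes planted only in unigenes with more reads. Such counts have no variation between pools, so the test cannot speak to it or to unigenes with few reads. TMM factors and exact tests with an assumed coefficient of variation came from edgeR 4.0.16 (R 4.3.3). Sequences of the unigenes were not used here.

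Members and lists were chosen with earlier results of these data known. Named in each family were the 3 members with the most reads, up to 4 called members with the largest rise and fall, and the other contigs of their clusters. Over all members, the 10 with the most reads were named too. TIMPs and other astacins were named in addition, after their values were seen. The words of 3 comparison lists were corrected after values were seen. With the first words, 2 of 11 other astacins were higher and 6 lower (median −1.54), no other MMP was found, and 8 of 55 other serine proteases were higher and 13 lower (median 0.14). The corrected astacin and serine lists leave out hits such as cathepsins and inhibitors caught by shared letters, and the 2 hatching enzyme contigs went to the MMP list, where both were lower (median −2.22).

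Alternatives were TMM and median-of-ratios scaling, a fold of 4, assumed coefficients of variation of 0.2 and 0.4, summed clusters, 1 FPKM added, minimums of 50 reads and of none, and the set without the chymotrypsin inhibitor hit, which was added after seeing the data.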

Additional observations from a re-analysis of the deposited data

How the results depend on the processing

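With a fold of at least 4, 1 protease unigene was called higher and 7 lower. An assumed biological coefficient of variation of 0.2 in edgeR's exact test left 2 higher and 6 lower, and one of 0.4 left 0 higher and 0 lower, with 3769 and 616 unigenes called over all. The true variation between pools is unknown, so a count here holds only for these libraries. Under the other settings 4 were higher and 8 to 12 lower, the lowest with summed clusters and with a minimum of 50 reads. The median log2 fold change stayed below 0, between −1.05 and −0.47. Without a minimum of reads the family medians of ADAMTS and ADAM hits changed sign, to 1.87 over 22 unigenes and 0.40 over 10. None of the hits added to these families was called. Most of them had no reads in control gills or, less often, in PA gills. Their large log2 ratios come from setting an FPKM of 0 to 0.01, so these medians show no direction for either family. Summing clusters lost the calls of CL934.Contig1, CL1771.Contig3 and CL3717.Contig2. Depth limits the serine and astacin hits, which had 9 to 55 reads in the control library. No paired analysis was possible because each condition has 1 library.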
